A study of Mus musculus with 4 samples.

Results

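Spp1, Penk, Igfbp7, Serpine2, Nrgn, Nrn1 and Slc16a11 are 7 of the 12763 genes in the deposited expression table. They were set side by side because earlier results of these data had placed them in tumour CD8 T cells with exhaustion receptors. They were chosen by measured values: their levels in the 4 libraries, their levels in tumour cells with and without a value for Pdcd1, Havcr2 or Tnfrsf9, and CD137 minus against CD137 plus cells. All values of those kinds below are descriptions, and nothing is tested on them.

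The cells came from C57BL/6 recipients that were irradiated and reconstituted with bone marrow of both Cd4cre Cd137fl/fl ROSA26tomato and Cd137fl/fl ROSA26tomato donors. CD137 is the co-stimulatory receptor encoded by Tnfrsf9, and Cre under the Cd4 promoter deletes the floxed gene in T cells, CD8 T cells included, since these pass through a Cd4-expressing stage in the thymus. All recipients carried a subcutaneous B16K1 melanoma, and cells were taken on day 21 after its injection. The 4 groups were tumour CD137 minus (1262 cells), tumour CD137 plus (2766 cells), spleen CD137 minus (2464 cells) and spleen CD137 plus (473 cells). Each group was 1 library pooled from 7 mice, without a key from cell to mouse in the table, so no difference has a replicate check and every interval covers counting error only. The CD137 minus cells differ from the CD137 plus cells also by Cre and by donor marrow, which cannot be told apart from the loss of CD137. The labels disagree on which fraction was tomato positive, and the groups here rest on their CD137 status. Tnfrsf9 had a value in 15.8% of tumour CD137 minus cells, against 45.3% of tumour CD137 plus cells, and its level was 57.5 CPM against 421 CPM.

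The sorted cells carried the genes of the labelled cell type. Cd8a or Cd8b1 had a value in 99.1% of cells in tumour CD137 minus, 99.3% in tumour CD137 plus, 99.2% in spleen CD137 minus and 99.2% in spleen CD137 plus. The median cell held 4834 corrected counts in tumour CD137 minus, against 3702 in tumour CD137 plus. The spleen medians were 3973 in CD137 minus and 5344 in CD137 plus. A total of 19 cell barcodes occurred in more than 1 library, 1 of them in both tumour libraries. The levels below are sums of corrected counts over a group's cells, scaled to a total of 1000000 (CPM), and a ratio is log2 with 1 CPM added to each side.

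T cells that meet antigen for long in a tumour enter a state called exhaustion, in which they keep inhibitory receptors such as PD-1 (Pdcd1) and TIM-3 (Havcr2) on their surface and make fewer cytokines. A pool marked by Tcf7 and Slamf6 renews the population, and cells with Havcr2 are its more terminal descendants. CD137 is induced by antigen receptor signalling, so Tnfrsf9 also marks recently stimulated cells.

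Of the genes described here, 4 encode secreted proteins. Spp1 encodes osteopontin, a matrix glycoprotein and cytokine that binds CD44 and integrins. Penk encodes proenkephalin, the precursor of the enkephalin opioid peptides. Igfbp7 encodes a secreted protein of the insulin-like growth factor binding protein family, and Serpine2 encodes protease nexin-1, an inhibitor of thrombin and of plasminogen activators. Another 2 are known best from neurons: Nrgn encodes neurogranin, a postsynaptic protein that binds calmodulin, and Nrn1 encodes neuritin, a protein anchored to the cell surface that promotes neurite growth. Slc16a11 belongs to the monocarboxylate transporter family.

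The genes lie apart in the genome (GENCODE M21 annotation, build GRCm38, the same assembly as mm10). Spp1 (ENSMUSG00000029304.14) spans chr5:104435118-104441050 on the plus strand, and Igfbp7 (ENSMUSG00000036256.13) spans chr5:77349240-77408041 on the minus strand. Penk (ENSMUSG00000045573.9) spans chr4:4133531-4138819, Serpine2 (ENSMUSG00000026249.10) chr1:79794197-79861180, Nrgn (ENSMUSG00000053310.11) chr9:37544492-37552904 and Nrn1 (ENSMUSG00000039114.16) chr13:36725361-36735131, all on the minus strand. Slc16a11 (ENSMUSG00000040938.16) spans chr11:70212752-70216417 on the plus strand. An annotated gene on the opposite strand overlaps Penk (A830012C17Rik), Nrn1 (Fars2 and Gm30177) and Igfbp7 (Polr2b and Gm34648), and Gm42793 overlaps Spp1 on its own strand.

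Promoter sequence was available in the RefSeq table (GRCm38.p6) for 5 of the 7 genes, not for Penk or Nrn1. The 150 bases before a RefSeq start site of each gene are given here because the genes were found in the same cells and their promoters can be set side by side. Capitals mark TGTGGT, the core letters bound by RUNX factors, and CANNTG, the E-box, each on either strand. The windows of Serpine2, Nrgn and Slc16a11 lie inside the GENCODE spans given above, since the RefSeq start used lies downstream of the outermost GENCODE start.
Spp1 (chr5:104434961-104435110, plus strand): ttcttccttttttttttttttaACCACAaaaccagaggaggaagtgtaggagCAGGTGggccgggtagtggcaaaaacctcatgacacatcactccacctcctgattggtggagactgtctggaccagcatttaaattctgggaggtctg
Igfbp7 (chr5:77408046-77408195, minus strand): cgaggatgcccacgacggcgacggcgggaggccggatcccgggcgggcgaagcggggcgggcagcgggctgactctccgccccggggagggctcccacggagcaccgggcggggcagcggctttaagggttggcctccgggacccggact
Serpine2 (chr1:79858666-79858815, minus strand): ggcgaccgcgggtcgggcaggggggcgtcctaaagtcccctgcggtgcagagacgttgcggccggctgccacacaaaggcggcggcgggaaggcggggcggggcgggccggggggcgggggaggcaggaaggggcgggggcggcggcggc
Nrgn (chr9:37552746-37552895, minus strand): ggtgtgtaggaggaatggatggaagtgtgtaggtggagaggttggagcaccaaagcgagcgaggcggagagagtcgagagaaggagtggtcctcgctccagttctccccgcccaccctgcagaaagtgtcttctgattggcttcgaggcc
Slc16a11 (chr11:70213760-70213909, plus strand): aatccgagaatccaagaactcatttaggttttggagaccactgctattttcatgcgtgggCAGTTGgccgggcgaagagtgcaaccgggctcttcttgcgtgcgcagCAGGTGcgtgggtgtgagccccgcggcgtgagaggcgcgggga

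These promoters were unlike each other in base composition. Over the 250 bases before the start, G and C made up 78.8% in Serpine2 and 74% in Igfbp7, 58.4% in Nrgn, 54.8% in Slc16a11 and 43.6% in Spp1, against a median of 52.4% over all 32851 windows in the table. Serpine2 held 34 CpG dinucleotides and Spp1 held 3. TGTGGT was in 14% of all windows and, among the 6 windows of these genes, only in that of Spp1, 128 bases before the start. Another start of Spp1 has the sixth window, which is not printed. CANNTG was in 66.2% of all windows and in 5 of the 6. The AP-1 letters TGANTCA (6.75% of all windows), the cAMP response element TGACGTCA (1.55%), the NF-kB motif (1.41%) and the NBRE letters AAAGGTCA (1.34%) were in none of the 6. GGAAA, the core letters bound by NFAT, was in 55.6% of all windows and in both Spp1 windows only.

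All 7 genes were detected in both tumour libraries and were close to absent in the spleen. Spp1 had a value in 13.9% of tumour CD137 minus cells (175 cells) and 12.2% of tumour CD137 plus cells (338 cells), and its level was 243 and 238 CPM. Penk had a value in 6.89% and 6.29% of cells of those libraries, with levels of 70.2 and 78.8 CPM. Spp1 and Penk were listed at 0 in every cell of both spleen libraries.

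Igfbp7 had a value in 8.24% of tumour CD137 minus cells and 9.04% of tumour CD137 plus cells (27.7 and 44.3 CPM). Serpine2 had a value in 6.1% and 6.98% (27.7 and 40 CPM), and Slc16a11 in 10.9% and 13.4% (46.7 and 68.4 CPM). Igfbp7 and Slc16a11 were listed at 0 in both spleen libraries, and Serpine2 had a value in 5 of the spleen CD137 minus cells and was listed at 0 in spleen CD137 plus.

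The neuronal genes were found in more tumour cells than the others. Nrgn had a value in 20.8% of tumour CD137 minus cells and 25.7% of tumour CD137 plus cells (128 and 168 CPM), and Nrn1 in 20.6% and 24% (151 and 183 CPM). In spleen CD137 minus, 8 cells had a value for Nrgn (1.73 CPM) and 26 for Nrn1 (4.58 CPM), and both genes were listed at 0 in spleen CD137 plus. Only 8 genes of spleen CD137 minus, and 0 of the other libraries, were seen in 1 to 4 cells, so a rarer gene may be listed at 0, and a 0 gives no upper limit. In order of the share of cells, Nrgn and Nrn1 stood first in both tumour libraries, Spp1 and Slc16a11 next, then Igfbp7, with Penk and Serpine2 last. The 95% intervals of Nrgn and Nrn1 overlapped each other in both libraries, as did those of Penk and Serpine2.

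**Figure D1:**
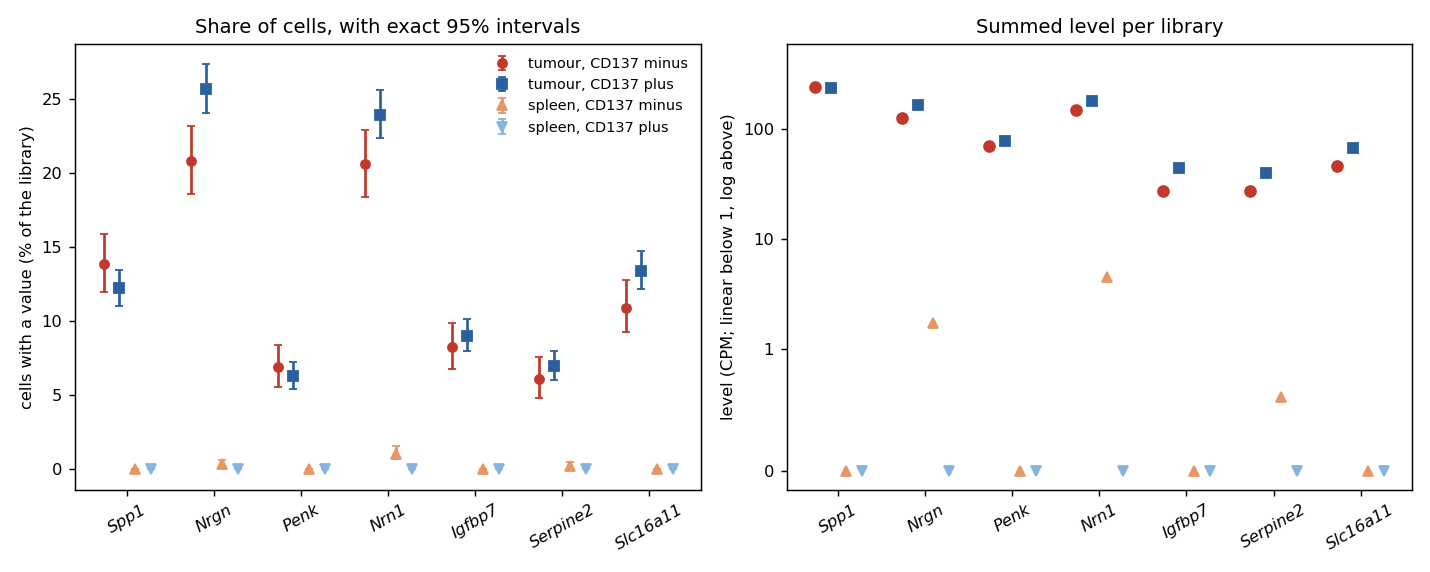
The left panel plots the share of cells with a value for each gene (percent, exact 95% binomial intervals for shares above 0) and the right panel its level (CPM, an axis linear below 1 and logarithmic above) in the tumour CD137 minus, tumour CD137 plus, spleen CD137 minus and spleen CD137 plus libraries, 1 point per library. The tumour points lie between 6.1% and 25.7% of cells, and no spleen point exceeds 1.06%.

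Tumour against spleen could be given as a ratio only where the spleen library had a value. In the CD137 minus cells, the log2 ratio of tumour over spleen was 5.56 for Nrgn (128 against 1.73 CPM), 4.77 for Nrn1 (151 against 4.58 CPM) and 4.15 for Serpine2 (27.7 against 0.61 CPM). These 3 were the genes with a ratio, and all 3 were higher by at least 1, as were 9.02% of all 5412 genes measured in that comparison. Each of the 3 passed the minimum level and share of cells only through the tumour library. Pdcd1 had a log2 ratio of 5.9 there. The contrast was among those that chose the genes.

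Set side by side, the tumour libraries differed less. The log2 ratio of CD137 minus over CD137 plus was -0.66 for Igfbp7, -0.54 for Slc16a11, -0.52 for Serpine2, -0.39 for Nrgn, -0.28 for Nrn1, -0.16 for Penk and 0.03 for Spp1. So 3 of the 7 were lower by at least 0.5, where 5.44% of the 5353 measured genes were lower by as much and 1.7% higher. The median of the 7 was -0.39, against -0.13 over all measured genes, and relative to that median only Igfbp7, at -0.53, was past 0.5. The genes that defined the cells stood likewise: the ratio was -0.51 for Pdcd1 (363 against 518 CPM) and -0.57 for Havcr2 (32 against 48 CPM). By the share of cells, the interval of Nrgn in CD137 minus (18.6% to 23.2%) lay below that in CD137 plus (24.1% to 27.4%). The intervals of the other 6 genes overlapped. Those shares were not at equal depth, since the median total was higher in CD137 minus. With every cell thinned at random to 2900 corrected counts, Nrgn had 16.4% in CD137 minus against 22.3% in CD137 plus. Nrn1 then had 17.1% against 21.5%, Slc16a11 7.69% against 11.2% and Igfbp7 5.39% against 7.7%. Serpine2 had 4.68% against 5.86%, Penk 4.6% against 5.5% and Spp1 11.41% against 11.42%. The thinned shares have no intervals. In cells with 1000 to 2000 detected genes, all 7 were lower by at least 0.5.

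Cells that carried Pdcd1 carried all of these genes more often. In tumour CD137 minus, Nrgn had a value in 45.1% of the 514 cells with Pdcd1, against 4.14% of the 748 cells without it. Nrn1 had 40.9% against 6.68%, Spp1 26.7% against 5.08%, and Slc16a11 23.7% against 2.14%. Igfbp7 had 18.3% against 1.34%, Penk 13% against 2.67%, and Serpine2 12.3% against 1.87%. The intervals of the cells with and without Pdcd1 did not overlap for any of the 7 genes. By level, Spp1 was at 535 CPM against 40.7 CPM, Nrgn at 288 against 17.1 CPM and Igfbp7 at 62.3 against 3.65 CPM.

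In tumour CD137 plus every gene again had the higher share in the Pdcd1 cells, with a smaller ratio. Nrgn had a value in 38.2% of the 1527 cells with Pdcd1, against 10.3% of the 1239 without, and Nrn1 in 34.4% against 11.1%. Slc16a11 had 21% against 4.04%, Spp1 16.9% against 6.46%, Igfbp7 14% against 2.91%, Serpine2 10% against 3.23% and Penk 8.32% against 3.79%. In log2 ratios of CPM, all 7 genes were higher by at least 1 in the Pdcd1 cells of CD137 minus (2.38 for Serpine2 to 4.08 for Slc16a11), where 13.4% of all measured genes were. In CD137 plus, 6 of 7 were (1.9 for Nrgn to 2.49 for Igfbp7), where 6.6% of all measured genes were, and Penk had 0.6. The contrast was part of how the genes were chosen, so nothing is read from these counts.

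Cells with Pdcd1 also had more detected genes, a median of 1730 against 1334 in CD137 minus and 1499 against 1187 in CD137 plus. Drawing 2900 corrected counts at random from every cell, a number that all cells reached, left Nrgn with a value in 36% of the cells still with Pdcd1 and 5.75% of the others in CD137 minus, and in 32.8% and 11.1% in CD137 plus. Spp1 then had 23.2% against 5.01% in CD137 minus, and 15.7% against 6.88% in CD137 plus. The direction was unchanged for all 7 genes in both libraries.

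The share of cells with each gene also differed along the amount of Pdcd1. In CD137 minus, Spp1 had a value in 5.08% of cells with no Pdcd1, 12.1% with 1 corrected count, 20.5% with 2, 26.3% with 3 to 5 and 42.5% with 6 or more. Nrgn over the same bins had 4.14%, 25%, 46.6%, 46.2% and 60.8%. In CD137 plus, Spp1 had 6.46%, 17.9%, 13.4%, 19.8% and 14.7%, and Nrgn had 10.3%, 28.3%, 31.9%, 45.2% and 44.7%. In the topmost bin, the interval of Spp1 was 34.5% to 50.7% in the 153 CD137 minus cells and 10.7% to 19.4% in the 273 CD137 plus cells. After thinning, Spp1 stood there at 33.3% in CD137 minus and 13.9% in CD137 plus. The bins kept the Pdcd1 counts from before thinning. Cell totals were higher in CD137 minus, so a bin is not the same Pdcd1 level in both libraries. The median cell of that bin had 1975 detected genes in CD137 minus and 1688 in CD137 plus. Penk in the same bin had a value in 17% against 6.59% of cells, and 9.15% against 5.13% after thinning. Serpine2, at 11.8% against 10.6%, had overlapping intervals.

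**Figure D2:**
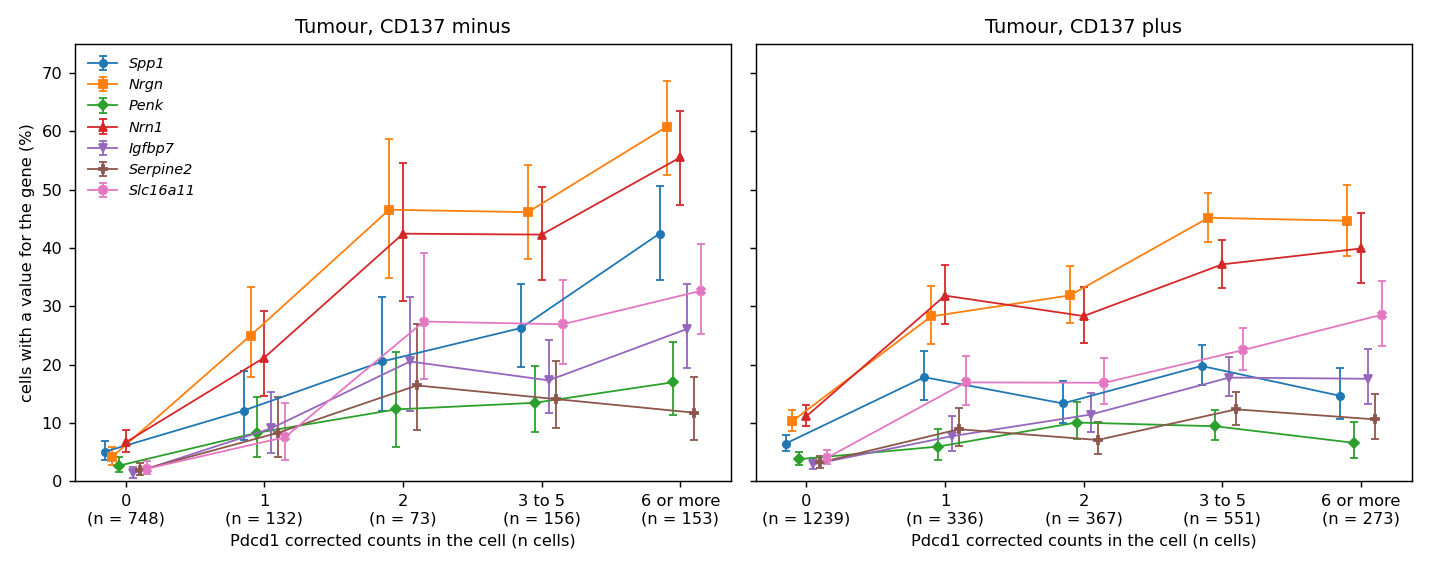
Lines join the share of cells (percent, exact 95% intervals) with a value for each of the 7 genes in cells binned by their Pdcd1 corrected counts, with CD137 minus on the left and CD137 plus on the right. In CD137 minus Spp1 stands at 42.5% in cells with 6 or more Pdcd1 counts, and in CD137 plus at 14.7%. Cell totals differ between the libraries, so their bins are not matched.

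Havcr2 marked fewer cells, 117 in tumour CD137 minus (9.27%) and 356 in tumour CD137 plus (12.9%). Spp1 had the highest ratio of CPM there. In CD137 minus it had a value in 36.8% of cells with Havcr2, against 11.5% of cells without, and in CD137 plus in 26.1% against 10.2%. Its level was 1074 against 156 CPM in CD137 minus and 678 against 169 CPM in CD137 plus. Serpine2 had a value in 15.4% against 5.15% of cells in CD137 minus, and in 16.3% against 5.6% in CD137 plus. Penk had 17.1% against 5.85% in CD137 minus, and 8.99% against 5.89% with overlapping intervals in CD137 plus. By log2 ratio, 6 of the 7 were higher by at least 1 in CD137 minus (background 10.8%), with Penk at 0.91. In CD137 plus 4 of the 7 were (background 2.18%), with Nrgn at 0.95, Igfbp7 at 0.92 and Penk at 0.72 short of it. Cells with Havcr2 had more detected genes, a median of 1885 against 1411 in CD137 minus and 1720 against 1266.5 in CD137 plus. After thinning, with status from the thinned counts, Spp1 had 34.2% against 9.89% in CD137 minus and 24.7% against 9.88% in CD137 plus. Penk then had 11.4% against 4.14% in CD137 minus and 6.62% against 5.37% in CD137 plus. The direction was unchanged for all of the 7 in both libraries.

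With Tnfrsf9, all 7 were higher by at least 1 in both libraries, in CD137 minus (background 12.6%) from 1.94 for Serpine2 to 3.25 for Spp1, and in CD137 plus (background 4.88%) from 2.17 for Igfbp7 to 3.3 for Spp1. Spp1 was at 961 CPM in the 200 CD137 minus cells with Tnfrsf9, against 100 CPM in the 1062 without. In CD137 plus it was at 460 CPM in the 1252 cells with Tnfrsf9, against 45.8 CPM in the 1514 without. Nrgn had a value in 60.5% against 13.4% of cells in CD137 minus, and in 44.9% against 9.84% in CD137 plus. Cells with Tnfrsf9 had more detected genes, a median of 2014.5 against 1373.5 in CD137 minus and 1579.5 against 1181 in CD137 plus. After thinning, with status from the thinned counts, Nrgn had 43% against 13.2% in CD137 minus and 39.4% against 9.69% in CD137 plus. Penk went from 16.5% against 5.08% to 6.67% against 4.35% in CD137 minus, and had 7.99% against 3.65% in CD137 plus. The direction was unchanged for all 7 genes in both libraries. A Tnfrsf9 value in a CD137 minus cell is a transcript and not surface CD137. Whether its reads cross the deleted exons was not tested.

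Within cells of the same status, the libraries stood differently than as a whole. In cells with Pdcd1, the log2 ratio of CD137 minus over CD137 plus was 0.69 for Penk (151 against 93 CPM) and 0.58 for Spp1 (535 against 357 CPM), and these 2 of 7 were higher by at least 0.5, where 3.44% of measured genes were higher and 2.99% lower. The other 5 lay between -0.17 for Igfbp7 and 0.24 for Nrn1. In cells without Pdcd1, 3 of the 7 passed the minimum level and share of cells, and all 3 were lower in CD137 minus by at least 0.5 (background 9.09% lower and 1.64% higher). Nrgn had a ratio of -1.89 (17.1 against 65.9 CPM), Nrn1 -1.14 (32 against 71.4 CPM) and Spp1 -1.08 (40.7 against 87 CPM). In CD137 minus Nrgn was under the minimum level and share, so it passed only through CD137 plus, where it was higher. Penk, in under 5% of these cells in both libraries, was at 14.3 against 61.1 CPM.

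Few cells held much of the Spp1 and Penk sums among the Pdcd1 cells. The 10 cells with most Spp1 held 47.5% of its sum among CD137 minus cells with Pdcd1, and 30.7% among CD137 plus cells with Pdcd1. For Penk the 10 top cells held 68.9% and 37%. Without those 10 cells in each group, 0 of the 7 genes were higher by 0.5 and the ratio of Penk was -0.29. In cells with 1000 to 2000 detected genes, the ratio was -0.54 for Spp1 and -0.495 for Penk. The share of Pdcd1 cells with a value was 26.7% in CD137 minus against 16.9% in CD137 plus for Spp1, and 13% against 8.32% for Penk. These cells held a median of 5048 against 3825 corrected counts. At equal totals the shares were 22.2% against 15.9% for Spp1 and 8.56% against 7.07% for Penk, with Pdcd1 status taken before thinning. Among cells without Pdcd1, the 10 top cells held more still, 75.9% and 58.3% of Spp1 and 80.4% and 75.5% of Penk.

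In cells with Havcr2, 1 of the 7 was higher by at least 0.5 in CD137 minus (background 13.2% higher and 10.9% lower), Spp1 at 0.66. Its ratio was -0.45 without the 10 top cells of each group and -1.27 where Havcr2 cells had to hold 2 corrected counts. In cells without Havcr2, Igfbp7 (-0.81), Slc16a11 (-0.57) and Nrgn (-0.52) were lower by at least 0.5 (background 5.9% lower and 1.64% higher).

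By Tnfrsf9 the genes leaned the other way. In cells with Tnfrsf9, Spp1 (1.06), Penk (0.55) and Nrn1 (0.53) were higher by at least 0.5 in CD137 minus (background 9.83% higher and 3.42% lower). In cells without Tnfrsf9, Spp1 (1.11), Penk (0.71), Nrgn (0.62) and Slc16a11 (0.53) were, 4 of the 5 that passed the minimum level and share of cells (background 1.68% higher and 3.42% lower). Among these, Penk and Slc16a11 passed only through CD137 minus, where they were higher. Neither subset had a member lower by 0.5, whereas over all tumour cells 3 were. The CD137 minus library had fewer cells with Tnfrsf9 (15.8% against 45.3%), and that gene is the one deleted in it, so cells sorted by its transcript are not matched between the libraries. In cells with 1000 to 2000 detected genes, 0 of the 7 were higher by 0.5 in the Tnfrsf9 cells and 1 of the 7 in the cells without. Leaving out the 10 top cells of each group likewise left 0 and 1.

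**Figure D3:**
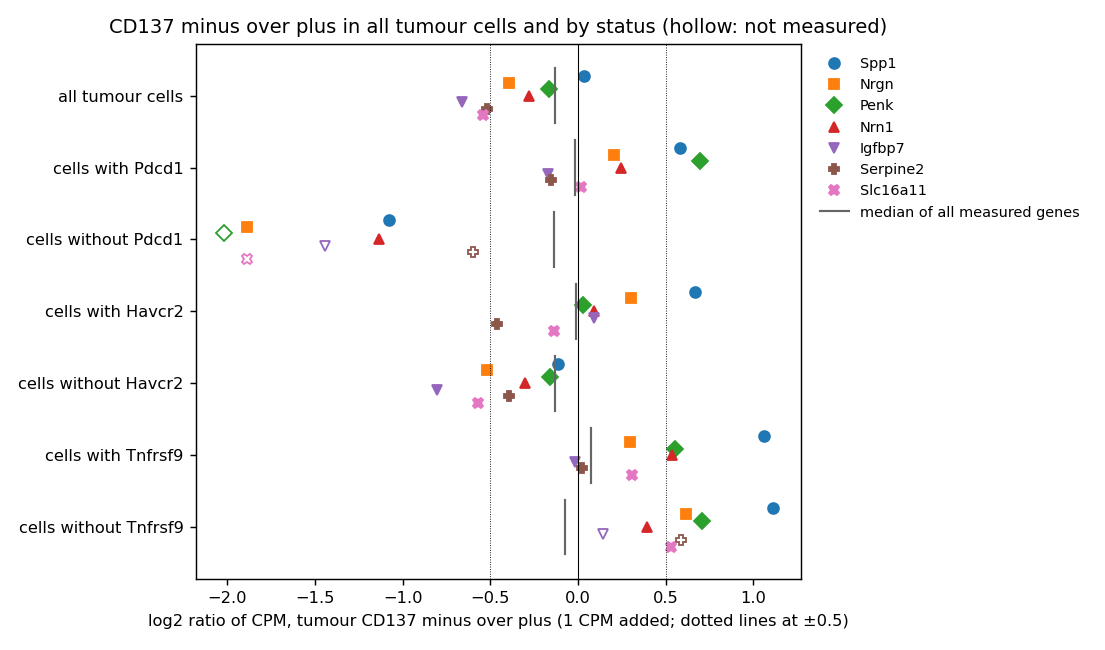
Points give the log2 ratio of CPM, tumour CD137 minus over CD137 plus, for each gene over all tumour cells and in cells with and without Pdcd1, Havcr2 or Tnfrsf9; hollow points are genes under the minimum level or share of cells, and vertical bars mark the median of all measured genes. Nrgn lies at -1.89 in cells without Pdcd1, where it passed the minimum only through CD137 plus, and at 0.21 in cells with Pdcd1.

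Tumour cells were then split into gates, each cell in 1 gate only, of which 5 are described. Cells with markers of other cell types were set apart first, then cycling cells. Cells with Pdcd1 that fell in either are therefore not in the Pdcd1 gates. The gate of cells with both Pdcd1 and Havcr2 had the highest share of every gene among these 5 in both libraries. In the 77 such cells of CD137 minus, Nrgn had a value in 55.8%, Nrn1 in 50.6%, Spp1 in 46.8%, Slc16a11 in 33.8%, Igfbp7 in 26%, Serpine2 in 20.8% and Penk in 16.9%. In the 235 such cells of CD137 plus, the shares were 53.6% for Nrgn, 46.4% for Nrn1, 28.9% each for Spp1 and Slc16a11, 18.7% for Serpine2, 17.9% for Igfbp7 and 11.9% for Penk. The Spp1 intervals there, 35.3% to 58.5% in CD137 minus and 23.2% to 35.2% in CD137 plus, did not overlap. These cells were 6.1% of all cells in CD137 minus and 8.5% in CD137 plus, and they held 39.9% and 33.8% of all Spp1. They had a median of 1965 and 1754 detected genes, against 1589 and 1383 in Pdcd1 cells without Havcr2, Tcf7 or Slamf6. Some intervals overlapped between those gates, as for Penk in CD137 minus (9.31% to 27.1% against 9.49% to 18.3%). The part of depth in these shares was not tested. Pdcd1 and Havcr2 status was also among the values that chose the members.

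The cells with Pdcd1 and Tcf7 or Slamf6, without Havcr2, also carried the genes. Nrn1 had a value in 44.4% of the 99 such cells in CD137 minus and in 32.5% of the 197 in CD137 plus, and Nrgn in 37.4% and 33.5%. Spp1 had 16.2% and 13.2% there. Spp1 was at 207 and 178 CPM in these cells, against 1540 and 901 CPM in the cells with Pdcd1 and Havcr2. The 10 top cells held 93.9% and 85.6% of the Spp1 sum in these cells, and 83.1% and 60.4% of it in the cells with Pdcd1 and Havcr2. Nrn1 differed less between these gates, at 287 and 295 CPM against 441 and 421 CPM.

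Cells with cycling genes carried the members too. Nrgn had a value in 43% of 128 such cells in CD137 minus and in 33.6% of 274 in CD137 plus. Free RNA in droplets can give a value in cells that do not express a gene, and no tumour cells known to lack these genes were set apart here. The nearest measure within a library is the share in cells without Pdcd1, which for Nrgn was 4.14% in CD137 minus and 10.3% in CD137 plus.

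**Figure D4:**
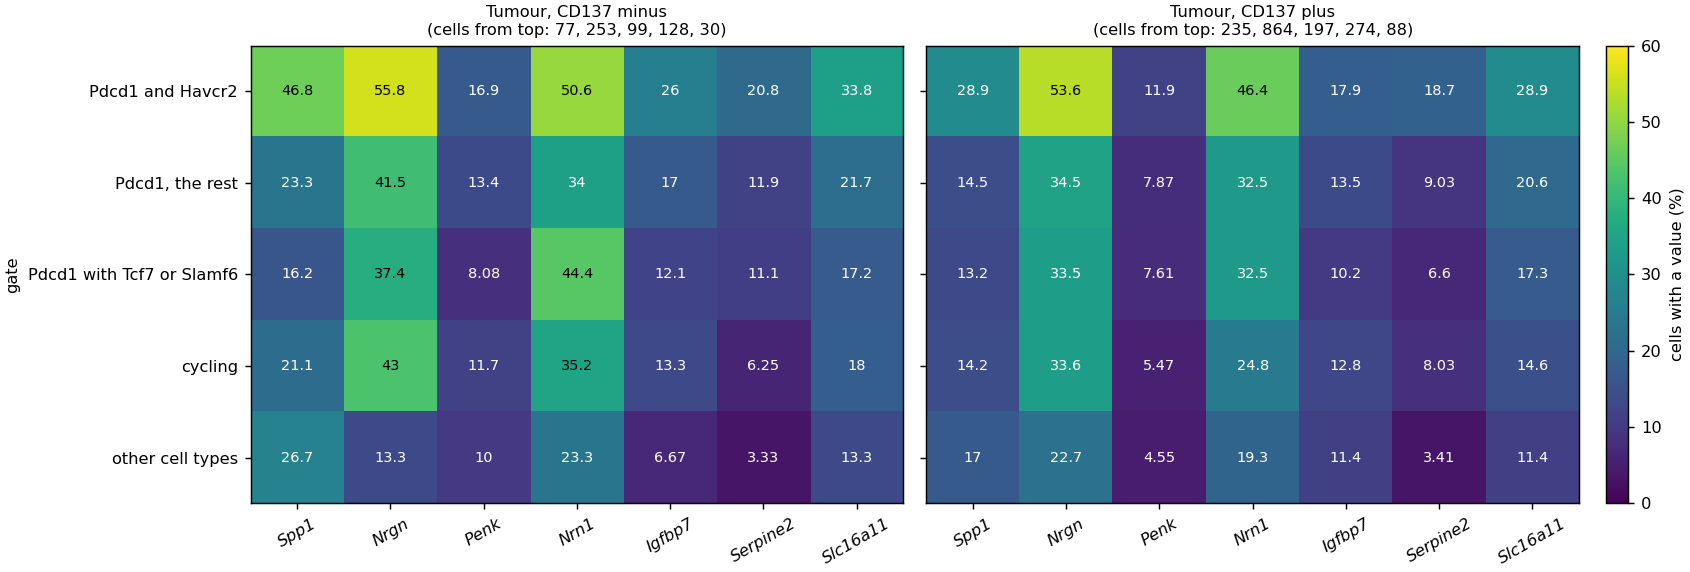
Colour and number give the percent of cells with a value for each gene in 5 gates of tumour cells (the remaining cells are not shown), with CD137 minus on the left and CD137 plus on the right. Cells in the rows for other cell types and cycling were set apart before the Pdcd1 gates. The topmost row, cells with Pdcd1 and Havcr2, runs from 16.9% to 55.8% in CD137 minus and from 11.9% to 53.6% in CD137 plus.

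Spp1 and Penk were spread unevenly over the cells that had them. The median cell with Spp1 held 2 corrected counts, while the highest held 94 in CD137 minus and 130 in CD137 plus. Cells with 10 or more corrected counts of Spp1 numbered 39 in CD137 minus and 69 in CD137 plus and held 75.7% and 71.7% of its sum. For Penk, 10 cells in CD137 minus and 21 in CD137 plus had 10 or more and held 63.9% and 53.6% of the sum. Slc16a11 and Igfbp7 had 0 such cells in CD137 minus and 1 each in CD137 plus. Nrgn and Nrn1 lay between, with at most 20 and 22 in a cell of CD137 minus and 16 and 21 in a cell of CD137 plus.

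The genes were found in the same cells. At least 1 of the 7 had a value in 37.4% of tumour CD137 minus cells and 46.9% of tumour CD137 plus cells, with intervals that did not overlap (34.7% to 40.1% and 45.1% to 48.8%). At least 3 had a value in 171 cells of CD137 minus, 13.5%, and in 377 cells of CD137 plus, 13.6%. All 7 had a value in 4 cells of CD137 minus and in 0 cells of CD137 plus. Cells with at least 3 had Pdcd1 in 92.4% and 85.1%, Havcr2 in 24% and 31%, and Tnfrsf9 in 55% and 88.3% of cases in CD137 minus and CD137 plus. Cells with none of the 7 had Pdcd1 in 21.4% and 35.9%. The median number of detected genes was 2131 against 1302 in CD137 minus and 1841 against 1179 in CD137 plus for cells with at least 3 against cells with none.

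Nrgn was the most frequent partner of each of the other 6 genes in both libraries. Of the cells with Igfbp7, 80.8% also had Nrgn in CD137 minus and 64.4% in CD137 plus, where 20.8% and 25.7% of all cells had it. Of the cells with Slc16a11, 72.5% and 65.2% had Nrgn, and of the cells with Penk, 69% and 57.5% had. Among all Pdcd1 cells 45.1% and 38.2% had Nrgn. Within the Pdcd1 cells the shares were still higher beside a partner: 85.1% and 65.4% beside Igfbp7, 82.1% and 64.6% beside Penk, and 66.4% and 63.9% beside Spp1. Cells with a partner also had more detected genes, a median of 2142 against 1396 for Igfbp7 in CD137 minus, and the part of this in the shares was not tested.

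**Figure D5:**
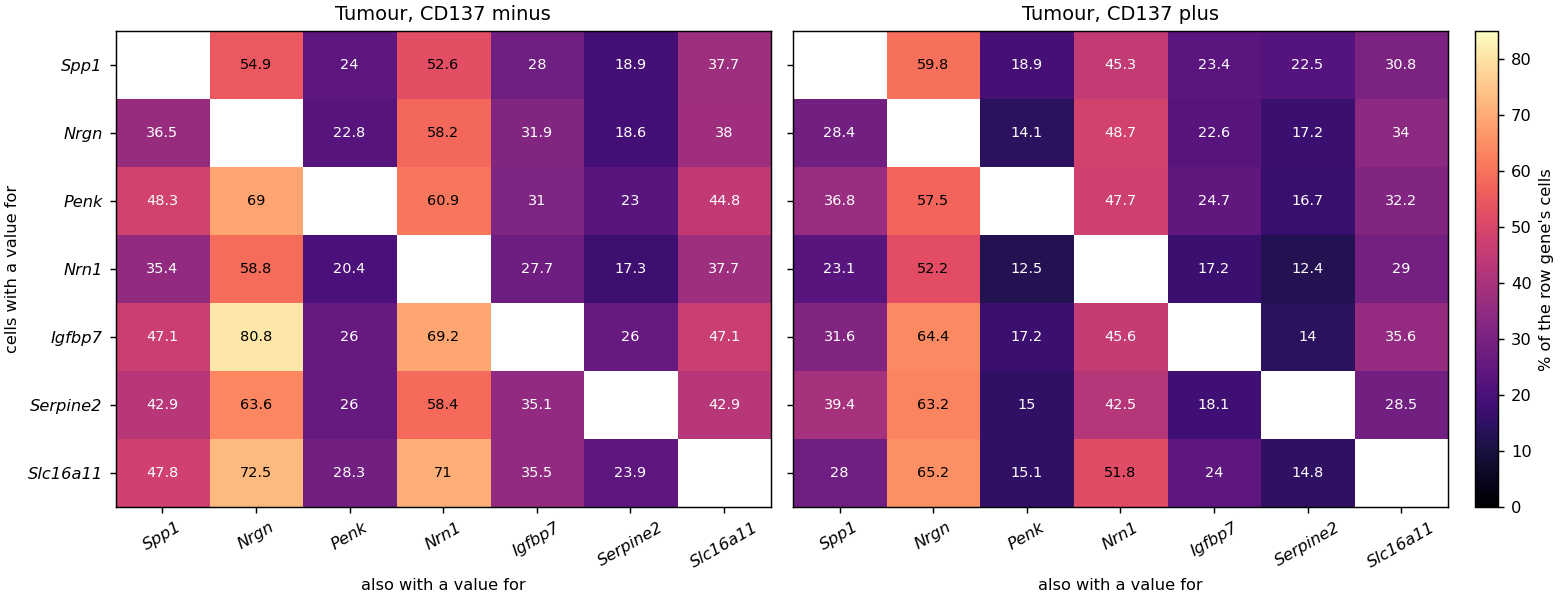
Each cell of the map gives the percent of the cells with a value for the row gene that also had a value for the column gene, with CD137 minus on the left and CD137 plus on the right. Nrgn is the highest entry in the row of each other gene, and 80.8% of Igfbp7 cells had it in CD137 minus, against 64.4% in CD137 plus. Nrn1 is close behind in some rows, as for Slc16a11 in CD137 minus (71% against 72.5%).

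Cells with Nrgn had more of most exhaustion genes and less of most naive genes than cells without it, by counts that are descriptions only. Of the 15 exhaustion receptors and factors, 14 were higher by at least 1 and 0 lower in CD137 minus cells with Nrgn, and 8 higher and 0 lower in CD137 plus cells with Nrgn. Of all measured genes, 14.4% were higher and 2.29% lower by as much beside Nrgn in CD137 minus, and 4.22% higher and 1.59% lower in CD137 plus. Cells with Nrgn also had more detected genes, a median of 2047 against 1330 in CD137 minus and 1735 against 1208 in CD137 plus, and the part of this was not tested. Lag3, an inhibitory receptor, was at 695 CPM in CD137 minus cells with Nrgn, against 123 CPM in those without, and at 647 against 232 CPM in CD137 plus. Tox, a transcription factor of exhausted cells, was at 260 against 94 CPM and at 283 against 156 CPM. Of the 10 naive genes, 9 in CD137 minus and 8 in CD137 plus were lower by at least 1 beside Nrgn, among them Lef1, a transcription factor of resting T cells, at 28.9 against 224 CPM and 27.8 against 144 CPM.

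Gzmb, the cytotoxic protease granzyme B, stands in the same list of 15. It was at 89.7 CPM in CD137 minus cells with Nrgn, against 133 CPM in those without, and at 185 against 286 CPM in CD137 plus. In CD137 minus cells with Spp1 it was at 87.7 against 130 CPM, and in CD137 plus at 264 against 258 CPM. Beside Penk, 8 of the 15 exhaustion genes were higher by at least 1 in CD137 minus (13.1% of all measured genes) and 0 of 15 in CD137 plus (3.76% of all measured genes), where the median ratio was 0.49. Xcl1, a chemokine gene of the progenitor exhausted list, was at 1290 against 442 CPM in CD137 minus cells with Penk, and at 1845 against 575 CPM in CD137 plus cells with Penk.

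Correlations across single cells, taken within each tumour library over 5712 genes and averaged, were modest. Cells within a library share its preparation and differ in depth, so they are given as descriptions. Nrgn went most with Lag3 (mean r 0.48), Tnfrsf4 (0.44) and Tigit (0.44). Lag3 and Tigit are inhibitory receptors, and Tnfrsf4 is the co-stimulatory receptor OX40. Nrn1 went with Nrgn (0.42), Lag3 (0.4) and Tnfrsf4 (0.39). Slc16a11 went with Nrgn (0.41), Nrn1 (0.34) and Lag3 (0.33), and Igfbp7 with Nrgn (0.39), Tnfrsf4 (0.34) and the chemokine receptor gene Ccr8 (0.32).

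Among the other secreted genes, Spp1 went with Nrgn (0.39), Penk (0.32) and Prf1 (0.32), the gene of the pore-forming protein perforin. Serpine2 went with Spp1 (0.28), Lag3 (0.24) and Prf1 (0.24), and Penk with Spp1 (0.32), the chemokine gene Ccl1 (0.3) and Nrgn (0.29). For Nrgn with Lag3, r was 0.55 in CD137 minus and 0.41 in CD137 plus, and for Spp1 with Lag3 it was 0.37 and 0.25.

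Spp1 is also a gene of macrophages, and Igfbp7 and Serpine2 are genes of stromal and tumour cells, so markers of such cells were counted beside the members. Of the 12 macrophage markers 9 were in the table, and their summed level was 351 CPM in CD137 minus cells with Spp1, against 169 CPM in those without, and 554 against 259 CPM in CD137 plus. For the other 6 genes the macrophage sum ran from 298 to 454 CPM beside the gene in CD137 minus, against 160 to 181 CPM, and from 289 to 379 CPM in CD137 plus, against 285 to 298 CPM. Most of the sum beside Spp1 was Cst3, at 283 against 135 CPM in CD137 minus and 499 against 213 CPM in CD137 plus. Itgam was listed at 0 in all tumour cells, and Cd14 in all cells of tumour CD137 plus, so neither bears on the Spp1 cells. The melanoma sum, over 9 of 10 markers in the table, was 254 CPM beside Spp1 in CD137 minus, against 21.3 CPM, and 145 against 37.9 CPM in CD137 plus. Of that melanoma sum, 5 cells held 96.8% in CD137 minus and 71.8% in CD137 plus.

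A gate of cells with markers of other cell types held 8 of the 175 Spp1 cells in CD137 minus (4.57%) and 15 of the 338 in CD137 plus (4.44%). The gate was 2.38% and 3.18% of all cells of those libraries. Spp1 had a value in 26.7% of its cells in CD137 minus and 17% in CD137 plus, against 13.9% and 12.2% of all cells. Its level in the gate was 511 and 90.6 CPM, against 243 and 238 CPM over all cells. That gate was defined by markers that include Mlana, Pmel, Dct and Tyrp1 of the melanoma list and Lyz2, C1qa and C1qb of the macrophage list. A fall of the melanoma sum outside the gate was therefore fixed in advance. Outside it, the melanoma sum beside Spp1 was 8.43 CPM, against 11.6 CPM in cells without Spp1, in CD137 minus and 20.1 against 18.3 CPM in CD137 plus. The macrophage sum outside it was 314 against 151 CPM in CD137 minus and 553 against 233 CPM in CD137 plus. Without that gate, the counts of members higher in Pdcd1 cells were as before, 7 and 6. The B cell sum, over 6 of 7 markers, was 291 CPM beside Spp1 in CD137 minus, against 371 CPM, and 654 against 516 CPM in CD137 plus. Cd74, which antigen-presenting cells also express, made up most of it, at 194 against 196 CPM in CD137 minus and 443 against 318 CPM in CD137 plus. Of the fibroblast and endothelial list 3 of 12 genes were in the table. The part of the macrophage genes in the Spp1 values was not tested.

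Genes that act beside the members were followed by lists chosen with earlier results of these data known. For osteopontin, 4 of the 10 receptor genes listed passed the minimum level and share of cells, and 0 differed by 0.5 between CD137 minus and CD137 plus over all tumour cells, Cd44 being nearest at -0.47 (58.6 against 81.7 CPM). With Pdcd1, 2 of those 4 were higher by at least 1 in CD137 minus (background 13.4%) and 1 of 4 in CD137 plus (background 6.6%). Itgav, the integrin alpha V chain, was at 186 CPM in CD137 minus cells with Pdcd1, against 35.3 CPM in those without, and at 154 against 50.3 CPM in CD137 plus. Itgb1, the integrin beta 1 chain, was at 445 against 191 CPM in CD137 minus.

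In the lists around Nrgn, Penk and Nrn1 few genes differed, and few or none of those around Penk and Nrn1 could be measured. Of the 17 calmodulin and calcineurin genes listed, 13 were measured and 0 differed by 0.5 between the tumour libraries. With Pdcd1, Nfatc1, a calcineurin-regulated transcription factor, was higher in CD137 minus (139 against 51 CPM) and was at 130 against 77.6 CPM in CD137 plus. It was the only 1 of the 13 to reach a ratio of 1 in CD137 minus, where 13.4% of all measured genes were higher by as much. Of the opioid list, 5 of 14 genes were in the table and 1, Ogfr, the opioid growth factor receptor, was measured, at 46.4 CPM in CD137 minus and 62 CPM in CD137 plus. None of the 12 neuritin and synaptic plasticity genes was measured, and 3 were in the table.

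Serpins, transporters and the growth factor axis gave single genes. Serpinb9, a granzyme B inhibitor, had a ratio of -0.68 between the tumour libraries (60.5 CPM in CD137 minus against 97.2 CPM in CD137 plus). It was the 1 of 3 measured genes of the protease inhibitor list past 0.5 (background 5.44% lower and 1.7% higher). Serpina3g was at 182 against 30.9 CPM with and without Pdcd1 in CD137 minus and at 178 against 66.6 CPM in CD137 plus. Of the monocarboxylate list, 0 of 5 differed by 0.5 between the libraries. Slc16a3, the lactate exporter MCT4, was at 68.4 against 5.05 CPM with and without Pdcd1 in CD137 minus and at 47 against 7.91 CPM in CD137 plus. It was the 1 of 6 measured genes of that list to reach a ratio of 1 in either library (background 13.4% in CD137 minus and 6.6% in CD137 plus). Igfbp4, which is also in the naive list, went opposite to Igfbp7: it was higher in CD137 minus than in CD137 plus (101 against 56.9 CPM, ratio 0.81), and with and without Pdcd1 it was at 31.1 against 149 CPM in CD137 minus and at 12.1 against 113 CPM in CD137 plus.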

How the data were processed

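Single-cell RNA was measured in 4 libraries of sorted CD8 T cells with a 10x Genomics 5' kit, 1 library per group. Cell Ranger 3.0.2, Seurat 3.0 and mm10 are named in the submitters' processing notes. The authors deposited 1 table of 6965 cells by 12763 genes on a natural log scale, and each entry is the logarithm of a whole number after 1 was added (tolerance 1e-12). The whole numbers were used as corrected counts. Totals are even within a library and differ between libraries, so depth was corrected by the authors in a way that the sources used here do not give, and the counts are not raw. No count model was run. Doublets were not called, since raw counts and hashtags were not analysed here.

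Members and gene lists were chosen with earlier results of these data known. Levels are corrected counts summed over a group's cells and scaled to 1000000 (CPM). To count as measured, a gene needed 20 CPM or more and detection in 5% or more of the cells of 1 group, and detection in both. Ratios of at least 0.5 (minus over plus) or 1 (status, tissue) were counted. Named genes are the members, the 3 genes most correlated with each, and up to 4 per list by ratio. Gzmb, Lag3, Tox, Lef1, Xcl1 and Cst3 beside the members, and Nfatc1, Itgav, Slc16a3 and others by Pdcd1, were named after their values were seen. Shares have exact Clopper-Pearson 95% intervals. Python 3.11.15, numpy 2.4.6, scipy 1.17.1 and pandas 2.3.3 were used, and the ratio step was tested on simulated data. Some genes and the results that need them are not reported here.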

Additional observations from a re-analysis of the deposited data

Results flagged for a closer look

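Between cells with and without Pdcd1, the ratio of tumour CD137 minus over CD137 plus went opposite ways for Spp1 and Penk. Spp1 had a log2 ratio of 0.58 in cells with Pdcd1 and -1.08 in cells without. Penk had 0.69 in cells with Pdcd1 and -2.02 in cells without, where it had a value in under 5% of cells. The difference was not tested, since each group is 1 library, and the ratios rest on few cells both with and without Pdcd1.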

How the results depend on the processing

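No paired analysis was possible because each group is 1 library and the result comes from no test. Leaving out a replicate was not possible for the same reason. Alternatives without the 10 top cells or without the gate of other cell types were chosen after seeing the data. Of 807 values of single members under an alternative, 720 were counted as the same, 74 as moved and 13 as reversed. Reversed means a changed sign where the main ratio was at least 0.5 or 1 in size, or the main share intervals did not overlap. Smaller values that changed sign were not counted as reversed. Without the filter on low values no ratio can change, so those 88 of the same were fixed in advance. With the difference of mean log levels, 83 were the same by sign only. Penk, Serpine2 and Igfbp7 rest on the fewest cells.

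Members lower by 0.5 in tumour CD137 minus numbered 3, against 1 with a pseudocount of 10 CPM, 1 relative to the median of all genes, 7 in cells with 1000 to 2000 genes and 5 without the 10 top cells. In cells without Havcr2 the same settings gave 1, 1, 7 and 5 in place of 3, and in cells without Pdcd1 no filter gave 7 in place of 3. Members higher by 0.5 in Pdcd1 cells numbered 2, against 0 in cells with 1000 to 2000 genes and 0 without the 10 top cells. In Havcr2 cells there was 1, against 0 under those settings and 0 with status from 2 corrected counts. In Tnfrsf9 cells there were 3, against 1 relative to the median, 0 in cells with 1000 to 2000 genes and 0 without the 10 top cells. In cells without Tnfrsf9 there were 4, against 2 in cells with a CD8 gene and without Cd79a, Lyz2, C1qa, Mlana or Pmel. There was 1 in cells with 1000 to 2000 genes, 2 without the gate of other cell types and 1 without the 10 top cells. Counts by Pdcd1, Havcr2 or Tnfrsf9 status and against spleen kept within 1.5 times under every alternative run.

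The values counted as reversed were, in Pdcd1 cells, Spp1 (-0.54) and Penk (-0.495) in cells with 1000 to 2000 genes. In Pdcd1 cells Penk was also -0.29 without the 10 top cells. In Havcr2 cells, Spp1 was -0.22, -1.27 and -0.45 with 1000 to 2000 genes, with status from 2 counts and without the 10 top cells. In Tnfrsf9 cells, Penk was -1.13 and Nrn1 -0.0524 with 1000 to 2000 genes, Penk -0.96 without the 10 top cells, and Penk's share lower by 1.33 points (-1.33) after thinning. In cells without Tnfrsf9, Nrgn was -0.0929 and Penk -0.396 with 1000 to 2000 genes, and Penk -0.0755 without the 10 top cells. The cause was not tested.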
